A study of Homo sapiens with 16 samples.

Results

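GSK126 and UNC0638, inhibitors of different histone methyltransferases, were compared directly in RPMI-8226 cells, an established human multiple myeloma line. The 4 arrays of this comparison, 2 of cells given GSK126 and 2 of cells given UNC0638, were chosen by their sample titles out of 16 arrays in the series. Each agent was given alone at 1 µM for 6 days. The other RPMI-8226 arrays, 2 of cells given the solvent DMSO and 2 of cells given both agents at 1 µM each, entered the same fit and are shown beside the comparison. The remaining 8 arrays hold the same 4 groups of MM.1S, another established human myeloma line. Both lines grow as malignant plasma cells in culture, without bone marrow stroma or immune cells, and all values are of RNA, not of histone marks or protein.

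EZH2, the target of GSK126, is the catalytic subunit of polycomb repressive complex PRC2, which methylates H3K27 at developmental genes and keeps them silent. G9a, encoded by EHMT2 and targeted by UNC0638, forms a dimer with GLP and places the lower methylation states of H3K9, a mark found over silent genes and repeats. In myeloma, EZH2 and G9a have been studied for their part in silencing genes of cell identity and of the interferon response, and interferon genes are induced when JAK kinases at an interferon receptor activate a complex that holds STAT2 and IRF9, which then binds their promoters. The question of the comparison was which genes differed in RNA level between cells given the EZH2 inhibitor and cells given the G9a inhibitor.

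Every RNA sample had an array to itself and was read in 1 colour. On the 4 arrays between 46.5% and 48.2% of the spots were well above background and no spot was saturated. A level below is the log2 signal of a probe minus the 75th percentile of its array, so a level of 0 is as bright as that percentile and a difference of 1 is 2-fold. The probes kept were those well above background on the GSK126 pair or on the UNC0638 pair of arrays, which left 22207 probes, 20726 of them with a gene symbol and 15409 symbols in all. All 9 plasma cell markers examined, among them SDC1, XBP1 and IRF4, were above background on all 4 arrays, and of the B cell markers PAX5 was above it on none and MS4A1, which encodes CD20, on 3, at levels of -4.06 to -2.49. The correlation over probes was 0.986 between the GSK126 arrays and 0.993 between the UNC0638 arrays. The study calls the 2 replicates of a group biological and the labels say no more of their origin. The p-values measure the spread between these arrays, whose number limits the precision. All 8 RPMI-8226 arrays lay on 1 slide, with each treatment in a column of its own, so treatment and slide column cannot be told apart. The first arrays lay in slide row 1 and the second in row 2, so replicate number and slide row cannot be told apart either.

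A total of 347 probes passed the test (limma, Benjamini-Hochberg adjusted p under 0.05), which is 1.56% of those tested. RNA was higher with GSK126 for 198 of them (0.892%, 176 symbols) and higher with UNC0638 for 149 (0.671%, 125 symbols). With the replicate number as a block 901 probes passed (4.06%), 537 higher with GSK126 (2.42%) and 364 higher with UNC0638 (1.64%), and these included all 347. Counted by fold alone, with no test, 1093 probes (4.92%) differed over 2-fold, 656 (2.95%) with the higher mean under GSK126 and 437 (1.97%) under UNC0638. The median difference over all probes was -0.03. In all 347 probes both arrays of one agent lay above both arrays of the other, as did 47% of all probes tested (20.4% with the GSK126 arrays above and 26.6% with the UNC0638 arrays above). The counts rest on few arrays. Without the first GSK126 array 17 and 38 probes passed, without the first UNC0638 array 28 and 23, and without the second UNC0638 array 48 and 33. Of the 53 genes or probes that are named below and passed, 20 passed without each of the 8 arrays in turn, and the highest adjusted p of the others with 1 array left out was 0.309.

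**Figure D1:**
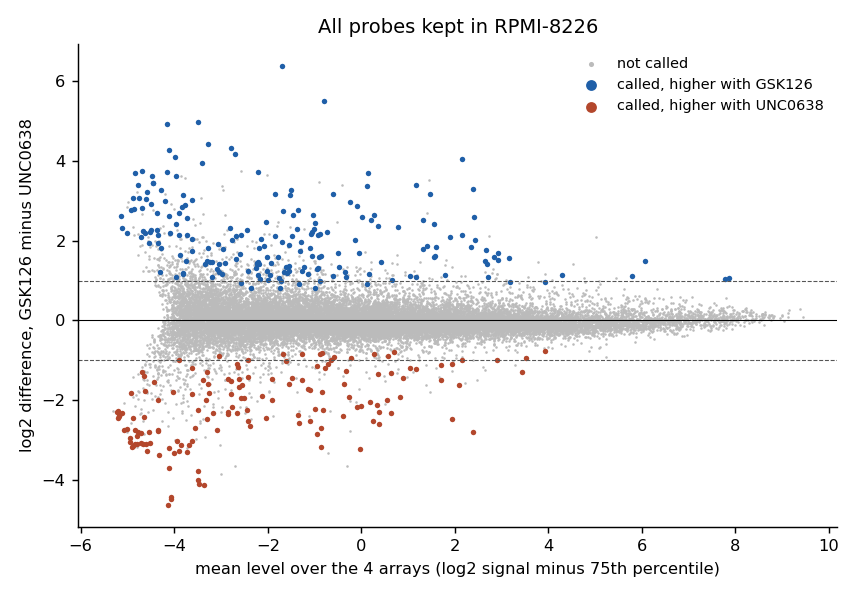
Log2 difference of GSK126 minus UNC0638 (vertical axis) against the mean level over the 4 arrays (horizontal axis, log2 signal minus the 75th percentile) for the 22207 probes tested in RPMI-8226. Coloured points are the 198 probes called higher with GSK126 and the 149 called higher with UNC0638, grey points did not pass, and the dashed lines mark 2-fold.

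The genes with the smallest p on the GSK126 side were spread over signalling, transcription and secretion. SOCS3, which encodes a feedback inhibitor of JAK-STAT signalling, had levels of -0.37 and -0.16 on the GSK126 arrays and -3.43 and -3.45 on the UNC0638 arrays. The groups were far apart, and the DMSO arrays at -2.45 and -2.30 lay between them. The difference was 3.17 ± 0.15 (SE, n = 2 arrays a group, limma adjusted p = 0.00149). Against DMSO SOCS3 passed with either agent, higher with GSK126 (2.11, adjusted p = 0.0058) and lower with UNC0638 (-1.06, adjusted p = 0.0359), 2 contrasts that share the DMSO arrays. PRDM8, a member of the PRDM family of zinc finger regulators, stood at 0.08 and -0.03 with GSK126 against -2.62 and -2.88 with UNC0638, a difference of 2.78 ± 0.15 (adjusted p = 0.00172). Its DMSO arrays, at -2.39 and -2.26, were close to the UNC0638 arrays and far from the GSK126 arrays.

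AGR2, which encodes a protein disulfide isomerase of the endoplasmic reticulum in secretory epithelium, was bright on the GSK126 arrays at 1.55 and 1.43 and was not well above background on either UNC0638 array. Where a group was dim on both arrays, the fold is a lower bound, taken against the lowest signal that was well above background on each dim array or the probe's own signal where that was higher. AGR2 was at least 59.7-fold higher with GSK126 by this bound (adjusted p = 0.00172). The same pattern, a signal with GSK126 and a probe not well above background with UNC0638, held for ELF3, an epithelial ETS factor (at least 10.7-fold, adjusted p = 0.00405), and for CFI, the complement factor I protease (at least 6.59-fold, adjusted p = 0.00337). It held for EBI3, a subunit of the cytokines IL-27 and IL-35 (at least 5.39-fold, adjusted p = 0.0047), ITPRIPL2 (at least 3.39-fold, adjusted p = 0.0047), PKIG, an inhibitor of protein kinase A (at least 3.01-fold, adjusted p = 0.0047), and AHNAK2 (at least 2.09-fold, adjusted p = 0.00337). Folds given as at least, here and below, hold only for the processing used for the test. Over the other settings the lowest fitted log2 difference was 3.60 for AGR2, where the bound is 5.90 on that scale. It was 1.94 for ELF3 (bound 3.41), 1.52 for CFI (bound 2.72) and 0.60 for AHNAK2 (bound 1.06). PKIG had 3 probes above the filter, of which 2 passed and the other differed by 0.08. On the DMSO arrays AGR2 had levels of -5.79 and -4.66, on both sides of the UNC0638 arrays at -4.79 and -5.01.

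Among genes measured above background on all 4 arrays, IL13RA1, a receptor chain for interleukins 4 and 13, had levels of 0.07 and 0.50 against -2.44 and -2.27 (2.64 ± 0.20, adjusted p = 0.00447). Its DMSO arrays, at -2.81 and -2.77, lay just below those given UNC0638.

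PVRL2, a nectin of cell contacts, had levels of -0.01 and -0.68 with GSK126 and -4.08 and -4.07 with UNC0638 (3.73, adjusted p = 0.0159). SPANXB2, a cancer-testis gene of the X chromosome, stood at 2.99 and 2.75 against -0.39 and -0.69 (3.41, adjusted p = 0.0206). Its DMSO arrays were lower than either agent, at -2.67 and -2.02, and SPANX copies are nearly identical, so its probes may read several of them. FXYD2, a regulator of the sodium pump, differed by 3.27 (adjusted p = 0.0159) and HOPX, an atypical homeodomain protein, by 3.18 (adjusted p = 0.0257), while a second HOPX probe differed by 0.57 and did not pass. LBH, a regulator of transcription, stood apart from these genes in where DMSO lay. It had levels of 1.67 and 1.92 with GSK126, -1.88 and -1.26 with UNC0638, 0.87 and 0.98 with DMSO and -2.75 and -1.24 with both agents, so the UNC0638 arrays lay with the combination and the GSK126 arrays with DMSO (GSK126 minus UNC0638 3.37, adjusted p = 0.0225). PVRL2 and FXYD2 lost their calls without the first GSK126 array or either UNC0638 array, and SPANXB2, HOPX and LBH without any 1 of the 4 arrays, with adjusted p of at most 0.149.

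On the UNC0638 side GLYATL1, a relative of the acyltransferase gene GLYAT, had levels of 1.82 and 1.57 with UNC0638 against -0.94 and -0.90 with GSK126 (-2.61 ± 0.18, adjusted p = 0.00374). IL2RG, the common gamma chain of interleukin receptors, stood at 0.94 and 1.18 against -1.04 and -1.14 (-2.15 ± 0.16, adjusted p = 0.00414), with DMSO lowest at -1.79 and -1.72. CAMKV, a pseudokinase best known from brain, differed by -2.85 ± 0.22 (adjusted p = 0.00456).

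For GAS2 and DOK5 the DMSO arrays lay between the agents. GAS2, which encodes a protein that links actin and microtubules, had levels of 1.45 and 1.60 with UNC0638, 0.51 and 0.59 with DMSO and -1.17 and -0.84 with GSK126. The difference was -2.53 ± 0.16 (adjusted p = 0.00297), and against the shared DMSO arrays GAS2 was lower with GSK126 (-1.56, adjusted p = 0.0172) and 0.97 higher with UNC0638 (adjusted p = 0.0648). DOK5, an adaptor of receptor tyrosine kinases, differed by -1.92 ± 0.14 (adjusted p = 0.00414) and was lower with GSK126 than with DMSO (-1.07, adjusted p = 0.0351).

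Several genes had a signal with UNC0638 and were not well above background on either GSK126 array. FAM90A7, a copy of a primate gene family, was at least 5.03-fold higher with UNC0638 (adjusted p = 0.00172), TBC1D21 at least 4.91-fold (adjusted p = 0.00374), MACROD2, an ADP-ribose hydrolase, at least 3.70-fold (adjusted p = 0.00233) and PIGR, the receptor that carries polymeric immunoglobulin across epithelium, at least 2.29-fold (adjusted p = 0.00351). A second probe of MACROD2 differed by 0.06 and did not pass. These bounds too hold only for the processing used for the test. Over the other settings the difference nearest to none was -1.27 for FAM90A7, -1.08 for TBC1D21, -0.79 for MACROD2 and -0.63 for PIGR on the log2 scale. PIGR was brighter still with both agents, at -1.14 and -0.79, than with UNC0638 alone, at -3.18 and -2.73. The genes with the largest differences measured on all 4 arrays also included CD3G, AKR1C3, an aldo-keto reductase, and SEZ6L2. CD3G, a chain of the T cell receptor complex, had levels of 1.74 and 1.42 with UNC0638 and -1.37 and -1.92 with GSK126 (-3.23 ± 0.34, adjusted p = 0.00856). AKR1C3 had levels of 3.74 and 3.81 against 0.88 and 1.07 (-2.80, adjusted p = 0.0189) and SEZ6L2 levels of 0.85 and 0.13 against -1.90 and -2.52 (-2.70, adjusted p = 0.0267). For each of these 3 genes both DMSO arrays lay far below both UNC0638 arrays. CD3G lost its call without the first GSK126 array or either UNC0638 array, and AKR1C3 and SEZ6L2 without any 1 of the 4 arrays (adjusted p of at most 0.138).

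**Figure D2:**
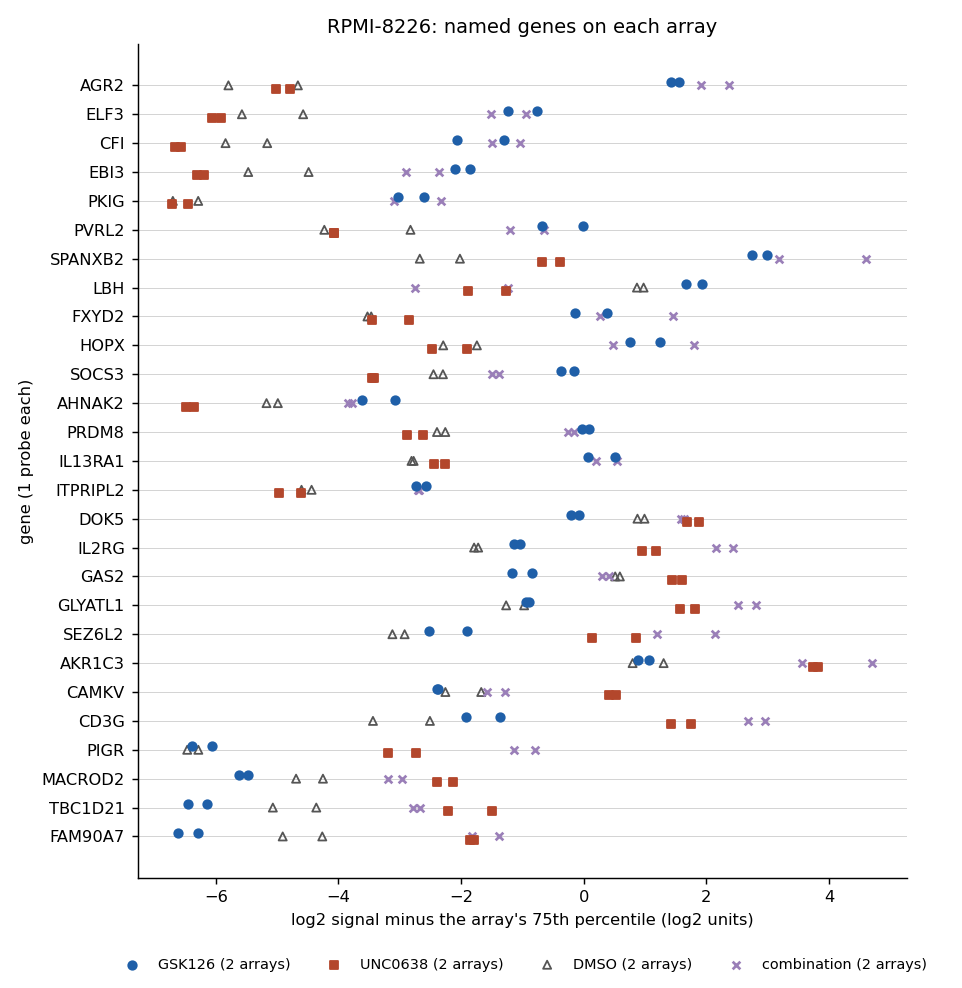
Level of the genes with the smallest p or the largest called difference in RPMI-8226 on each array (horizontal axis, log2 signal minus the 75th percentile of the array), with 1 probe a gene. Circles are GSK126, squares UNC0638, open triangles DMSO and crosses both agents, 2 arrays each. For AGR2 and IL13RA1 the DMSO arrays sit with UNC0638, for GLYATL1 and AKR1C3 they sit with GSK126, and for GAS2 they lie between the agents.

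The position of DMSO was read over all called probes. Of the 198 probes higher with GSK126, both DMSO arrays lay below both GSK126 arrays in 181 (3040 of all 22207) and above both UNC0638 arrays in 116 (5475 of all). Against the DMSO arrays alone, 81 of the 198 were called higher with GSK126 (0.626% of all probes were) and 10 were called lower with UNC0638 (0.0946% of all). Of the 149 probes higher with UNC0638, both DMSO arrays lay below both UNC0638 arrays in 139 (3808 of all) and above both GSK126 arrays in 68 (5291 of all), with 73 called higher with UNC0638 than with DMSO (0.581% of all) and 14 called lower with GSK126 (0.0946% of all). These contrasts share the DMSO arrays, and each also shares the arrays that chose the probes, so the counts describe the sets. Across all probes GSK126 against DMSO called 0.72% and UNC0638 against DMSO 0.675%.

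The levels of cells given both agents are not part of the contrast that chose the probes, though their arrays entered the fit that sets the spread. Without either of them 273 probes passed, 233 of which are among the 347. Of the 198 probes higher with GSK126, 149 (75.3%) were higher with the combination than with DMSO, of which 102 passed and a further 20 of the 198 passed as lower. Of the 149 probes higher with UNC0638, 118 (79.2%) were higher with the combination, 92 passed and 12 passed as lower. Over all probes 36.9% were higher with the combination, and it called 5.63% higher and 5.12% lower than DMSO. Examples are AGR2 at 2.37 and 1.90 with both agents, and CD3G at 2.95 and 2.68, each at or above its level with the agent under which it was higher. Other named genes higher with GSK126 passed as lower with the combination than with DMSO, namely LBH (-2.92, adjusted p = 0.0139), HBA2 (-1.23, adjusted p = 0.0231), ZNF577 (-1.30, adjusted p = 0.00898), ZNF284 (-0.85, adjusted p = 0.0494), ZNF569 (-0.84, adjusted p = 0.0139) and ZNF841 (-0.56, adjusted p = 0.0452). IRX4, a homeobox gene, differed from DMSO by -0.37 with the combination and did not pass. It was at -2.21 and -3.10 with GSK126 (at least 3.38-fold above UNC0638, adjusted p = 0.0101), -3.64 and -4.33 with DMSO and -4.57 and -4.14 with both agents.

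Gene lists written for the comparison were described with 1 probe a gene. Over the 15409 genes tested 279 passed (1.81%), 168 higher with GSK126 (1.09%) and 111 higher with UNC0638 (0.72%), the median difference was -0.03, 44.9% had the higher mean with GSK126, and both GSK126 arrays lay above both UNC0638 arrays in 20.5%, the reverse in 28.3%. With the replicate block 700 genes passed (4.54%), 429 higher with GSK126 (2.78%) and 271 higher with UNC0638 (1.76%). Of 67 genes of the type I interferon response 60 were measured. Their median difference was 0.47, 48 had the higher mean with GSK126, and in 34 both GSK126 arrays lay above both UNC0638 arrays against 4 the other way. Only 4 passed, SOCS3, PARP9, IFITM3 and HERC5, all higher with GSK126, and 10 passed with the replicate number as a block, also all higher with GSK126. The median was 0.67 between the first arrays and 0.26 between the second arrays. The list holds genes of the antiviral response that the study itself followed in these cells, so it is not independent evidence of a direction.

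By role, the antiviral effectors carried most of the shift. Of 37 measured, 34 had the higher mean with GSK126, with a median of 0.77, and 3 passed. PARP9, an ADP-ribosyltransferase partner of DTX3L, had levels of 0.08 and -0.18 with GSK126 and -1.55 and -1.81 with UNC0638 (1.63 ± 0.24, adjusted p = 0.0268), while a second PARP9 probe differed by 1.03 and did not pass. IFITM3, which restricts entry of viruses, had levels of 4.58 and 4.22 against 3.40 and 3.48 (0.96 ± 0.16, adjusted p = 0.0474), and its DMSO arrays at 4.12 and 4.21 were near the GSK126 arrays. HERC5, the ligase that attaches ISG15 to proteins, stood at -0.53 and -0.24 against -1.36 and -1.38 (0.99 ± 0.17, adjusted p = 0.0483), again with DMSO near GSK126 at -0.49 and -0.81. The calls of PARP9 and HERC5 were lost without any array other than those of DMSO, and that of IFITM3 without any array other than the second of GSK126, with adjusted p of at most 0.283. The 13 receptors and signal transducers had a median of 0.17 and the 7 RNA and DNA sensors a median of -0.04, and none of these passed. Against DMSO the median of the 60 genes was 0.47 with GSK126 and 0.05 with UNC0638, contrasts that share the DMSO arrays, and it was 0.85 with the combination.

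The interferon genes named by the study did not pass. ISG15, a ubiquitin-like protein of the antiviral response, had levels of 3.76 and 3.22 with GSK126 and 2.21 and 2.43 with UNC0638, so the groups did not overlap, and differed by 1.17 ± 0.22 (adjusted p = 0.0655, and 0.0462 with the replicate block). IRF9 differed by 0.67 (adjusted p = 0.164). OAS3, an RNA-activated synthetase, stood at -2.61 and -3.57 against -4.29 and -4.90 (adjusted p = 0.345). IFIT1, which binds foreign RNA ends, differed by 0.99 (adjusted p = 0.394) and IFI6 by 0.84 (adjusted p = 0.477). The spread within GSK126 was wide for these, with IFIT1 at 0.26 and -0.86 and IFI6 at 2.67 and 1.40, the second of which lay below the UNC0638 array at 1.53.

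Promoters of HERC5 and IFITM3, which passed, and of ISG15, which the study names, hold the core of the interferon-stimulated response element, which the complex that holds STAT2 and IRF9 binds. Stretches of the promoters are shown to make that element visible, from RefSeq on GRCh38.p14, 5′ to 3′ along the strand of the gene and upstream of its start, with every match in the stretch in capitals, where a match is GAAA, any 2 bases and GAAA again, or on the other strand TTTC, any 2 bases and TTTC. HERC5 lies at chr4:88457025-88457074 (plus strand), IFITM3 at chr11:320866-320915 (minus strand) and ISG15 at chr1:1013370-1013419 (plus strand).
HERC5: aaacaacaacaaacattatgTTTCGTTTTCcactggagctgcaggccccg
IFITM3: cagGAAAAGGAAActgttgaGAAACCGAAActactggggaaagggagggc
ISG15: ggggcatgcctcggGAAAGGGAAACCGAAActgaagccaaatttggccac
Upstream of the start HERC5 had 3 matches, of which the stretch holds 1, and IFITM3 and ISG15 had 2 each, which overlap in ISG15. The match nearest to the start begins 74 bases before it in HERC5, 35 in IFITM3 and 107 in ISG15. SOCS3 and PARP9, the other called members of the list, had no match in the window searched. Searched on both strands from 250 bases before to 50 after the start, the motif was in 25 of the 48 promoters matched to the interferon list (52.1%) and in 996 of all 27305 promoters (3.65%). A match is a description of the letters and no measurement of binding.

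Genes induced mainly by interferon gamma were measured for 10 of 14 members, of which 3 passed, all higher with GSK126, and the median was 0.16. GBP4, a guanylate-binding protein, had levels of -1.05 and -1.26 with GSK126 against -2.91 and -3.12 with UNC0638 (1.86 ± 0.22, adjusted p = 0.0132). GBP2 of the same family stood at 0.38 and 0.02 against -1.68 and -2.26 (2.17 ± 0.36, adjusted p = 0.0419). UBD, a ubiquitin-like modifier, was not well above background with UNC0638 and was at least 1.99-fold higher with GSK126 (adjusted p = 0.0175). In all 3 genes the agents did not overlap. The calls were lost without the first GSK126 array or either UNC0638 array for GBP4, without any array other than those of DMSO for GBP2 and without either GSK126 array for UBD, with adjusted p of at most 0.251. The 6 chemokines and enzymes of the list had a median of -0.04 and none passed. Of 19 genes of MHC class I antigen presentation 18 had the higher mean with GSK126, with a median of 0.23 and none called. HLA-E stood at 5.22 and 5.25 against 4.58 and 4.73 (adjusted p = 0.164) and HLA-F at 6.35 and 6.31 against 5.65 and 5.95 (adjusted p = 0.244). Of 9 class II genes none passed (median 0.43).

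Only a minority of HOX genes and other developmental transcription factors, a class of gene that PRC2 silences, was measured. Whether they are targets of PRC2 in these cells was not tested. Over all genes tested 1.81% passed, 1.09% higher with GSK126 and 0.72% higher with UNC0638. Of 39 HOX genes 6 were measured, each with the higher mean with GSK126, with a median of 0.73. HOXB2 was the only member that passed, with levels of -1.26 and -1.29 against -3.21 and -2.97 and with DMSO at -3.03 and -2.77 (1.81 ± 0.16, adjusted p = 0.00645, and at most 0.0563 with 1 array left out, the first GSK126 or the first UNC0638 array being those that ended the call), while a second HOXB2 probe differed by 0.51 and did not pass. Of 119 other developmental transcription factors 31 were measured and 3 passed. IRX4, given above, and HLX (at least 2.29-fold, adjusted p = 0.0219) were higher with GSK126, and both calls were lost without the first GSK126 array or either UNC0638 array (at most 0.136). TBX15, a T-box factor, was at least 6.34-fold higher with UNC0638 (adjusted p = 0.00856), with levels of -1.59 and -1.39 against -6.20 and -4.81 on GSK126 arrays that were not well above background. The TBX15 call was lost without either UNC0638 array (adjusted p of at most 0.0607).

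Cytokines and receptors of homing differed by single members. Of 20 cytokines and chemokines 2 passed, with a median of 0.49 over the list. IL32, a cytokine of lymphoid cells, had levels of 0.11 and -0.01 with GSK126 and -3.33 and -2.88 with UNC0638 (3.15 ± 0.32, adjusted p = 0.00829), and a second IL32 probe differed by 2.11 and also passed. IL7, a growth factor of lymphocytes, was at least 2.19-fold higher with GSK126 (adjusted p = 0.0219). Among 22 genes of adhesion and homing CCR7, the receptor that guides lymphocytes to lymph nodes, passed at least 3.20-fold higher with GSK126 (adjusted p = 0.027). JUNB, a subunit of AP-1, stood at -0.94 and -1.04 against -2.34 and -2.03 (1.20, adjusted p = 0.0269) and IER3, an early response gene, at 0.33 and 0.11 against -0.85 and -0.87 (1.08, adjusted p = 0.0271), the only 2 of 17 immediate early and heat shock genes that passed. HBA2, an alpha globin, stood at 3.65 and 3.61 against 1.87 and 2.24 (1.58, adjusted p = 0.0278), with DMSO at 2.99 and 3.08, and was the only 1 of 5 globins called, though its probes may read the near-identical HBA1 as well. IL32 lost its call without the first GSK126 array or the first UNC0638 array (adjusted p of at most 0.0812), and JUNB, IER3 and HBA2 lost theirs without any 1 of the 4 arrays, CCR7 without any array other than those of DMSO and IL7 without either GSK126 array or the second UNC0638 array (at most 0.186).

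Zinc finger genes of chromosome 19, which mostly encode KRAB repressors and lie in clusters rich in H3K9 methylation, were taken by symbol and position as 246 genes, of which 176 were measured. Of these, 144 had the higher mean with GSK126, in 100 both GSK126 arrays lay above both UNC0638 arrays against 13 the other way, and the median was 0.34 in the comparison of the group means and 0.36 within each replicate number. Just 4 passed, all higher with GSK126, and 26 did so with the replicate number as a block, again all higher with GSK126. This list had been added in earlier work on these data after values were seen. ZNF284 had levels of -1.81 and -1.43 with GSK126, -3.80 and -3.65 with UNC0638 and -2.03 and -1.60 with DMSO (2.11 ± 0.21, adjusted p = 0.00829). ZNF841 stood at -1.33 and -1.34 against -2.11 and -2.17 (0.80, adjusted p = 0.0424), ZNF569 at -0.54 and -0.64 against -1.41 and -1.37 (0.80, adjusted p = 0.0427), and ZNF577 was at least 1.65-fold higher with GSK126 (adjusted p = 0.0294). In each of these 4 genes the DMSO arrays were close to the GSK126 arrays and above the UNC0638 arrays. Over the 176 genes the median against DMSO was -0.13 with GSK126, -0.52 with UNC0638 and -0.64 with both agents, where the single agents share the DMSO arrays. ZNF841 and ZNF569 lost their calls with any array left out, ZNF577 without any array other than those of DMSO and ZNF284 without either UNC0638 array, with adjusted p of at most 0.284.

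**Figure D3:**
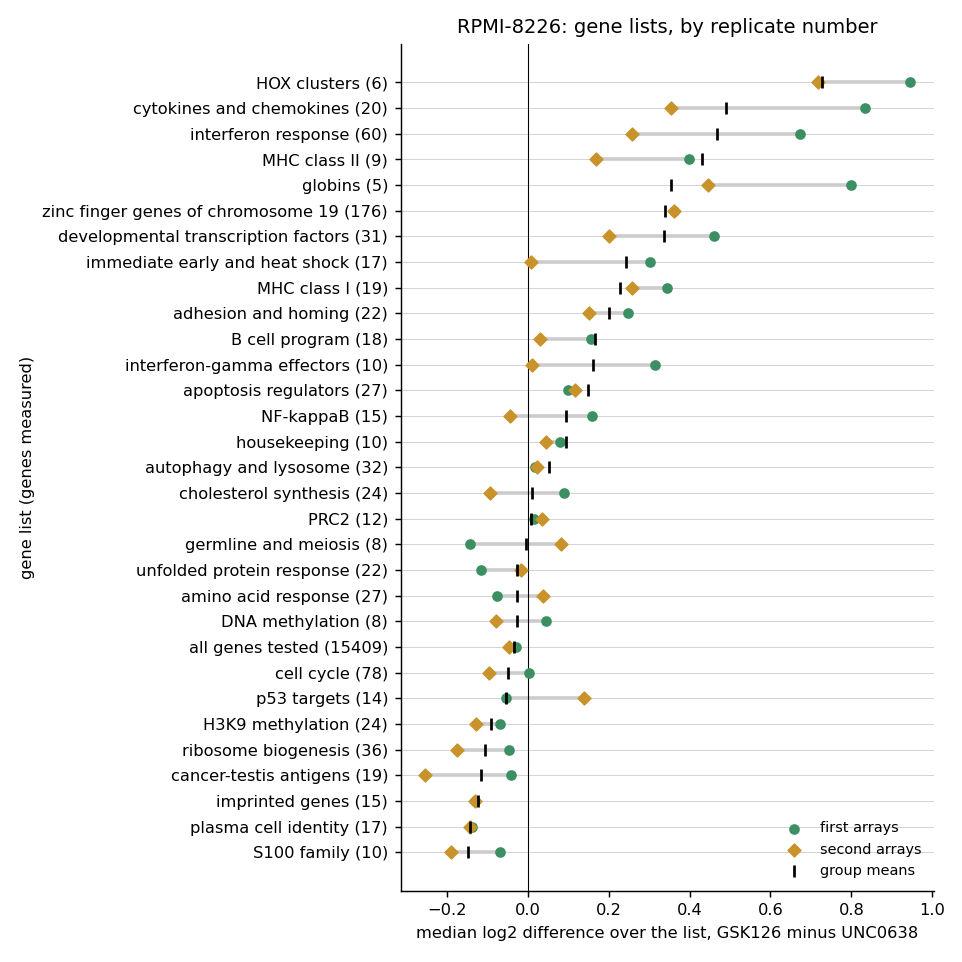
Median log2 difference of GSK126 minus UNC0638 over each gene list (horizontal axis), between the first arrays (circles), between the second arrays (diamonds) and between the group means (ticks), with the number of genes measured in brackets. The HOX, cytokine, interferon and chromosome 19 zinc finger lists lie to the right of all genes tested in both replicate numbers.

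**Figure D4:**
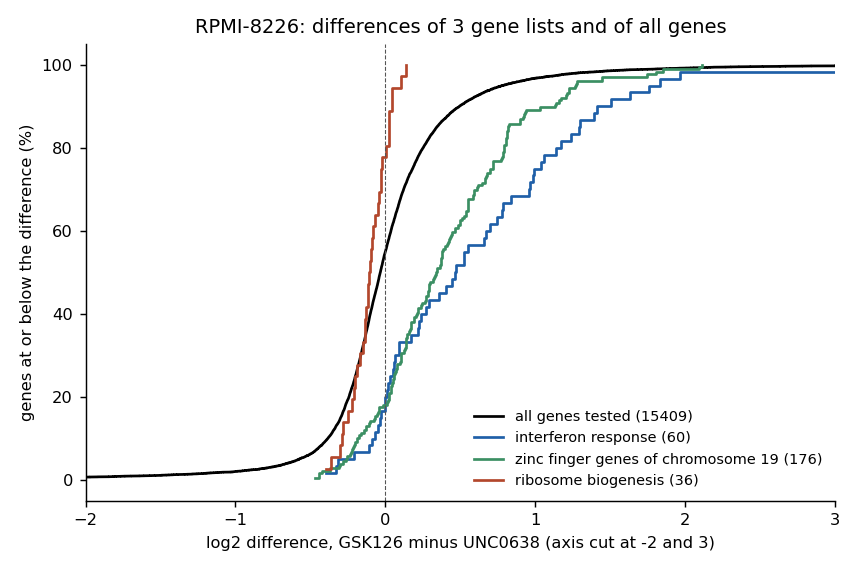
Log2 difference of GSK126 minus UNC0638 for the measured members of the lists named on the plot, beside all genes tested. The interferon and chromosome 19 zinc finger lists lie to the GSK126 side of all genes over most of their range (medians 0.47 and 0.34 beside -0.03), with 48 of 60 and 144 of 176 members higher on average with GSK126 and 4 of each list past the test.

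Most other lists had at most 1 called member. EZH2 had levels of 2.62 and 2.77 with GSK126 and 2.71 with each UNC0638 array, a difference of -0.01 (adjusted p = 0.976), and EHMT2 levels of 1.31 and 0.75 against 1.01 and 0.99, a difference of 0.03 (adjusted p = 0.969). The agents inhibit the enzymes and not their transcripts, so these levels do not check the labels. The sign of such small values turned with the scaling or without 1 array. None of 12 measured PRC2 genes (median 0.01), 24 genes of H3K9 methylation (-0.09) or 8 genes of DNA methylation (-0.03) passed. IRF4, a factor on which myeloma cells depend, stood at 2.41 and 2.47 against 2.35 and 2.21 (0.16, adjusted p = 0.773), MYC differed by -0.23 (adjusted p = 0.664) and PRDM1, which drives plasma cell differentiation, by -0.31 (adjusted p = 0.605). A second probe had the opposite sign for both MYC (0.06) and PRDM1 (0.19) and did not pass. KLF2 stood at -1.47 and -0.46 against -2.53 and -1.18, so the groups overlapped, and differed by 0.89 (adjusted p = 0.661, and 0.0319 with the replicate block).

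Of 17 genes of plasma cell identity none passed and the median was -0.14. SLAMF7, a surface receptor of plasma cells and a drug target in myeloma, was the member with the smallest p, at -1.73 and -1.88 with GSK126, 0.46 and 0.47 with UNC0638 and -3.10 and -2.02 with DMSO (-2.27 ± 0.42, adjusted p = 0.0566, and 0.0433 with the block). Of 18 genes of the B cell program none passed, with ID3 1.11 higher with GSK126 (adjusted p = 0.0539, and 0.0367 with the block) and BCL6 0.88 higher (0.0706, and 0.0377). CDKN1C, an imprinted cyclin-dependent kinase inhibitor, was the only 1 of 78 cell cycle genes called, at 4.27 and 4.37 with UNC0638 against 3.57 and 3.53 with GSK126 (-0.77 ± 0.13, adjusted p = 0.0474). That call was lost with any array left out (adjusted p of at most 0.309). CDKN1A, the p21 inhibitor, stood at -1.72 and -2.14 against -2.99 and -3.77 and differed by 1.45 (adjusted p = 0.14, and 0.00693 with the block). None of 36 genes of ribosome biogenesis (median -0.11), 24 of cholesterol synthesis (0.01), 27 of the amino acid response (-0.03), 22 of the unfolded protein response (-0.03), 32 of autophagy and the lysosome (0.05), 27 apoptosis regulators (0.15), 14 p53 targets (-0.05) or 15 genes of NF-kappaB signalling (0.10) passed. Of the apoptosis regulators FAS differed by 0.69 (adjusted p = 0.0833), and of the amino acid response ASNS by -0.47 (adjusted p = 0.314) and NUPR1 by 1.45 (adjusted p = 0.201, and 0.0371 with the block).

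Of 19 cancer-testis genes measured SPANXB2 alone passed and the median was -0.12, and of 15 imprinted genes CDKN1C alone passed (median -0.12). None of 8 germline genes, 10 S100 genes, 2 endogenous retrovirus genes, 10 housekeeping genes or the 1 interferon ligand measured passed. With the block S100A10, an annexin partner, passed as higher with GSK126, at 4.65 and 4.44 against 3.64 and 3.74 (0.85, adjusted p = 0.0531, and 0.0276 with the block), and MEI1, a gene of meiosis, as higher with UNC0638 (-1.81, adjusted p = 0.118, and 0.0273).

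Some markers of other cell types differed between the agents. Of the T and NK cell markers CD3G and CD3E were higher with UNC0638, CD3E at least 2.28-fold (adjusted p = 0.0219, lost without any of the 4 arrays, at most 0.125), while NKG7 and GNLY were above background on no array. CD3D, another chain of the T cell receptor complex and above background on all 4 arrays, differed by -0.05 (limma adjusted p = 0.964). CD2 (-2.02, adjusted p = 0.201) and CD8A (-0.53, adjusted p = 0.226) did not pass. Over the 7 markers, of which 4 were above background on all 4 arrays, the summed level on the linear scale was 2.07 to 2.59 with GSK126 and 5.40 to 6.24 with UNC0638, where CD3G was the brightest. Of the myeloid markers CD14, a co-receptor for lipopolysaccharide, was higher with GSK126, at 1.16 and 1.46 against -1.55 and -1.03 (2.60 ± 0.25, adjusted p = 0.00732, and 0.0563 at most without the first GSK126 or the first UNC0638 array), and MPO was above background on none. CD33, the brightest myeloid marker, went the other way (-0.80, limma adjusted p = 0.283) and did not pass. CSF1R (3.48, adjusted p = 0.098) and ITGAM (1.52, adjusted p = 0.312) had the higher mean with GSK126 and did not pass. The summed myeloid level was 9.59 to 15.4 with GSK126 and 13.2 to 14.8 with UNC0638. AGR2 counts among the epithelial markers, of which KRT19 and CDH1 were above background on no array, EPCAM and KRT18 did not pass, and the summed level was 85.6 to 93.3 with GSK126 and 69.0 to 72.3 with UNC0638. The summed plasma cell level was 246 to 275 and 255 to 290. None of 4 erythroid, 3 fibroblast and endothelial or 5 neuronal markers measured passed, and VWF of endothelium differed by -1.48 (adjusted p = 0.136, and 0.0337 with the block). The part of other cells in these results was not tested.

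Some called probes lay side by side on a chromosome or belonged to 1 family, groups that were picked out after the values were seen and that carry no test. Each span given here and below runs from the first to the last called probe of its run. Its ends were thus set by the calls, which raises the share of kept probes that passed within it. Of all 12 PRAMEF probes kept, 8 passed. On chromosome 1, within chr1:12884685-13428130 (GRCh37, the build of the probe positions), 8 of the 11 probes kept passed as higher with GSK126, all of PRAMEF genes, relatives of the tumour antigen PRAME. PRAMEF8 had levels of 2.17 and 1.73 with GSK126 against -4.67 and -2.43 with UNC0638 (5.50, adjusted p = 0.0137) and PRAMEF4 levels of 3.14 and 3.34 against 0.86 and 1.31 (2.16, adjusted p = 0.00856). PRAMEF7 was at least 10.1-fold higher with GSK126 (adjusted p = 0.00732). With both agents PRAMEF8 had a mean of -1.69 and with DMSO one of -0.13, both between the single agents. PRAME itself, on chromosome 22, differed by 0.30 and did not pass. A probe may read several of these related copies, so the 8 probes cannot be taken as 8 independent measurements. The probe sequences were not compared. Without the first GSK126 array the calls of PRAMEF4, PRAMEF7 and PRAMEF8 were lost, as was that of PRAMEF4 without the first UNC0638 array (adjusted p of at most 0.117).

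A likeness within pairs of the genes is visible in the 100 bases upstream of the start of 4 of them, which does not show what the probes read. The stretches are taken from RefSeq on GRCh38.p14 and written along the strand of the gene, in lower case throughout as no motif is marked. They are at chr1:12831411-12831510 (minus strand) for PRAMEF11, chr1:12886202-12886301 (minus) for PRAMEF4, chr1:12916510-12916609 (plus) for PRAMEF7 and chr1:13285138-13285237 (minus) for PRAMEF8.
PRAMEF11: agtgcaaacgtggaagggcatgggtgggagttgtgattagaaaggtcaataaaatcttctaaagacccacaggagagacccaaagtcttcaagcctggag
PRAMEF4: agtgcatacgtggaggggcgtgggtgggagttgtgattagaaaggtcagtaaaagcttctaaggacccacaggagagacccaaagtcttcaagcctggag
PRAMEF7: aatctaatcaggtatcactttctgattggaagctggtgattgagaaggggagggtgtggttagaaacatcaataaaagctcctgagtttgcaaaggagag
PRAMEF8: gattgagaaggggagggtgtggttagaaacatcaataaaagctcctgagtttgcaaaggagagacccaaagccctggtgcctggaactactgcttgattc
Over the 250 bases before the start, PRAMEF11 and PRAMEF4 shared 96% of bases, and PRAMEF7 and PRAMEF8, whose annotated starts are offset by 37 bases, shared 100% of 213. Between the pairs the best ungapped match over the whole overlap had 41.0% to 42.5%. That average does not show shorter stretches that the pairs share near the start. An example is ggagagacccaaag, which stands in the printed bases of PRAMEF11, PRAMEF4 and PRAMEF8, so the pairs are not to be read as unrelated.

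CFHR3, a complement regulator like CFI above, was 2.65 higher with GSK126 (adjusted p = 0.0239). On the UNC0638 side all 3 kept probes within chr10:5147789-5246455 passed, of AKR1C3, AKR1CL1 and AKR1C4, which encode or resemble aldo-keto reductases of steroids. AKR1C4 stood at -0.87 and -0.74 with UNC0638 against -3.32 and -3.21 with GSK126 (-2.46, adjusted p = 0.0268). Within chr11:58477273-58861465, 4 of 5 kept probes of GLYAT, GLYATL1 and a probe without a symbol passed as higher with UNC0638. Within chr1:160797545-161070095 LY9, a receptor of the SLAM family, was at least 3.87-fold higher (adjusted p = 0.0133), and ITLN1, a lectin, at least 5.84-fold (adjusted p = 0.0128), beside ITLN2 and KLHDC9, which also passed, among 11 probes kept. The calls of CFHR3, AKR1C4, LY9 and ITLN1 were each lost without the first GSK126 array and without 1 or both of the UNC0638 arrays, and in part without others (adjusted p of at most 0.178). All 3 kept probes of the FAM90A family were higher with UNC0638, and these copies too may share signal. Of the 149 called probes higher with UNC0638, 32 had symbols starting LOC, XLOC or LINC, and of the 198 higher with GSK126, 8 had. The share of such symbols over all probes kept was not counted, so these counts are not read as a result about such transcripts.

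In MM.1S cells the same contrast of the agents was fitted on other arrays. There 3224 of 24324 probes passed (13.3%), 6.85% higher with GSK126 and 6.41% higher with UNC0638. Of the 198 probes higher with GSK126 in RPMI-8226, 123 were kept in MM.1S, 83 of them (67.5%) had the higher mean with GSK126 there, 28 passed in that direction and 7 in the other. Of the 149 probes higher with UNC0638, 92 were kept in MM.1S, 79 (85.9%) went the same way, 44 passed in that direction and 7 in the other. Over all probes kept in both lines 56.8% had the higher mean with GSK126 in MM.1S. With 1 MM.1S array left out the calls in the same direction ranged from 16 to 19 and from 21 to 30. GLYATL1 (-2.07, adjusted p = 0.000994), PIGR (-2.85, adjusted p = 0.0463) and CD3E (-1.77, adjusted p = 0.0109) were higher with UNC0638 in MM.1S too. IER3 was 1.12 higher with GSK126 there (adjusted p = 0.00594). AGR2, ELF3 and CFI were not kept in MM.1S, where neither agent alone had them well above background on both arrays.

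**Figure D5:**
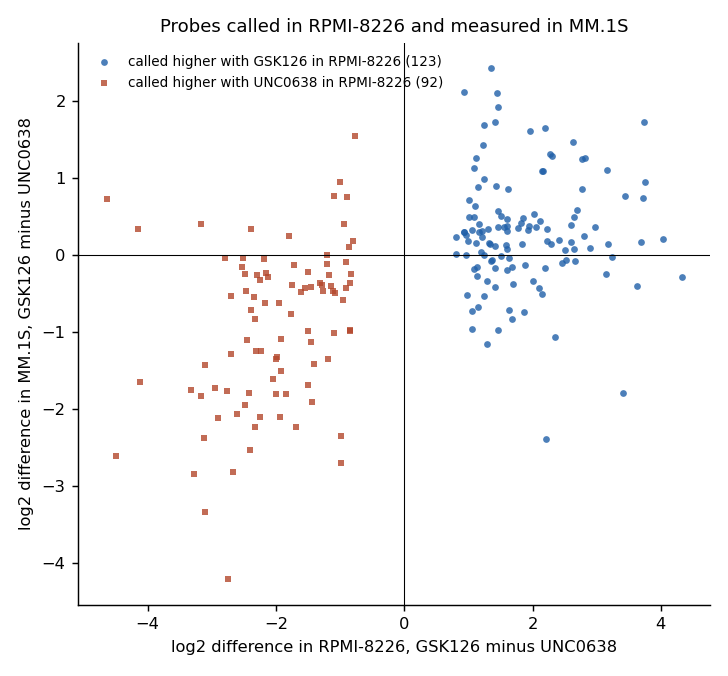
Log2 difference of GSK126 minus UNC0638 in MM.1S (vertical axis) against that in RPMI-8226 (horizontal axis) for the probes called in RPMI-8226 and measured in MM.1S, 123 higher with GSK126 (circles) and 92 higher with UNC0638 (squares). The squares lie mostly below 0 in MM.1S (79 of 92), and the circles scatter around 0 with 83 of 123 above it.

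The difference between the lines was tested as an interaction, which passed for 613 of 22207 probes (2.76%) and for 1424 with the replicate number as a block. The interferon list had a median of -0.30 in MM.1S beside 0.47 in RPMI-8226. In MM.1S the IRF9 levels were -0.68 and -0.56 under GSK126 but 0.20 and 0.38 under UNC0638, the opposite order to RPMI-8226, and its difference between the lines was 1.58 ± 0.20 (adjusted p = 0.00229). MYC differed between the lines by -1.16 ± 0.22 (adjusted p = 0.02) and was 0.93 higher with GSK126 in MM.1S (adjusted p = 0.00746). IL13RA1 and CD14, both higher with GSK126 in RPMI-8226, differed by 0.07 and 0.39 in MM.1S and did not pass there, and the difference between the lines passed for each (adjusted p of 0.00127 and 0.00289).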

How the data were processed

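The authors hybridised Cy3-labelled RNA of each sample to 1 Agilent array and deposited the scanner output, with a linear, background-subtracted intensity for every spot (Agilent Feature Extraction 10.7, per the submitters' processing notes). They also deposited a table of the same intensity values for the series. For the arrays the study's methods name no filter or test. The members and gene lists (39) were chosen with earlier results of these data known. Control and outlier spots were left out, the log2 of the processed signal was taken relative to the 75th percentile of the array, replicate spots were averaged, and a probe entered the test if either agent had it well above background on its 2 arrays. limma (3.58.1, R 4.3.3; lmFit and eBayes) was fitted over the 8 RPMI-8226 arrays with Benjamini-Hochberg adjustment over all probes and a threshold of 0.05, and again over the MM.1S arrays and over all 16 arrays for the difference between lines. A gene in a list was read from 1 probe, the kept probe with the highest mean.

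Named genes are the 10 symbols with the smallest p in each direction, the 6 in each direction with the largest difference among called probes above background on all 4 arrays, genes the study names, and of each list the called members (at most 4) or the 2 with the smallest p. Results for a few of these genes are not reported here. Families and neighbours were added after their values were seen. Deviations from the group means were positively correlated across probes between arrays of the same number in all 6 pairs of groups (r of 0.265 to 0.433, with 0.396 for GSK126 and UNC0638), and since the labels give the numbers, the replicates were treated as paired in the block. Slide row goes with the replicate number, so the correlations and the block may reflect either. On simulated data with 22206 probes the fit for this comparison recovered 32.8% of probes changed by 1, 85.1% of those changed by 2 and 90.9% of those changed by 3 on the log2 scale, with 6 false calls. The simulated noise was independent between arrays and lacked the correlation of same-numbered arrays, so these rates may not hold for the real arrays. Promoters were matched for 66.9% of the genes tested, under the 80% needed, so a check of sequence content over the called genes is void. Alternatives were other scalings, background correction, filters, fits, folds, the replicate block and each array left out. Figures were drawn with Python 3.11.15.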

Additional observations from a re-analysis of the deposited data

Results flagged for a closer look

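Of 110 named genes 84 were measured in both cell lines, and for 27 of them the difference of GSK126 minus UNC0638 was itself different between RPMI-8226 and MM.1S (limma interaction over 16 arrays, adjusted p between 0.000128 and 0.0492, each also under 0.05 with the replicate number as a block). Of the 27, 24 are given here. A value below is the log2 difference in RPMI-8226 minus that in MM.1S. A further 16 named genes passed but were not well above background in MM.1S, and are not listed.

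Among genes higher with GSK126 in RPMI-8226, the difference in MM.1S was smaller and of the same sign for IL13RA1 (2.57), CD14 (2.21), HOPX (3.03), PKIG (2.80), PRDM8 (1.92) and ZNF841 (0.79). SPANXB2 (5.21), UBD (4.61), IL32 (3.40), GBP4 (2.61) and PARP9 (2.34) were higher with GSK126 in RPMI-8226 and had the higher mean with UNC0638 in MM.1S, where UBD (-2.40, adjusted p = 0.0398) and PARP9 (-0.71, adjusted p = 0.0427) passed. IRF9 (1.58), HLA-E (0.72), HLA-DOB (2.34) and CASP10 (1.17) did not pass in RPMI-8226 and likewise had the higher mean with GSK126 there and with UNC0638 in MM.1S. HLA-DOB, a subunit that regulates loading of class II molecules, was higher with UNC0638 in MM.1S at 3.06 and 3.05 against 0.86 and 1.43.

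Among genes higher with UNC0638 in RPMI-8226, GAS2 (-2.38), IL2RG (-1.91), AKR1C3 (-2.76) and DOK5 (-0.83) had a smaller difference of the same sign in MM.1S, and FAM90A7 (-5.36) and CDKN1C (-2.30) had the opposite sign. CDKN1C was higher with GSK126 in MM.1S, at 1.65 and 1.31 against 0.09 and -0.20 (1.54, adjusted p = 0.00352). SLAMF7 (-2.10), MYC (-1.16) and SUV39H2 (-0.73), an H3K9 methyltransferase, did not pass in RPMI-8226. The cell lines lay on different slides, so line and slide cannot be told apart in these values.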

How the results depend on the processing

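The probes called higher with GSK126 and with UNC0638, 198 and 149, became 97 and 56 without the filter on dim probes, 117 and 69 over probes above background on all 4 arrays, 107 and 90 with only the 4 arrays in the fit (163 of the 347 shared), 613 and 469 in 1 fit over all 16 arrays, and 537 and 364 with the replicate number as a block. With 1 array left out they ranged from 17 to 196 and from 23 to 157. Quantile normalization, normexp, a percentile over detected probes, the series table and an intensity trend gave 158 to 249 and 134 to 183. The probes past 2-fold, 656 and 437, became 172 and 92 with normexp, 1954 and 837 without the filter, 369 and 172 over probes above background on all 4 arrays, 1681 and 1069 at 1.5-fold and 244 and 216 at 3-fold. In MM.1S the 28 and 44 probes called in the same direction ranged from 16 to 19 and from 21 to 30 with 1 array left out. The 613 probes that differed between the lines became 1424 with the replicate block. Signs turned for genes that did not pass. EZH2 (-0.01) was 0.016 with quantile normalization, 0.018 with the percentile over detected probes and -0.090 to 0.061 with 1 array left out. With 1 array left out EHMT2 ranged from -0.25 to 0.31, ERVK13-1 from -0.33 to 0.72, ERVMER34-1 from -0.19 to 0.26 and ENO2 from -0.061 to 0.65. The median of the interferon list kept its sign in all 16 settings (0.31 to 0.65), as did that of the zinc finger genes (0.26 to 0.39). The interferon ligands had no member above background on all 4 arrays, so no value there. The cause was not tested for any of these. Signal over background sets the limit for the called probes dim in 1 group (60 higher with GSK126 and 63 higher with UNC0638). For these only a lower bound is known, and it holds only for the processing used for the test.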

Other observations

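Some genes with large differences belong to no list above and are given as values, chosen after they were seen. Higher with GSK126 and not well above background with UNC0638 were RAB31, a small GTPase of vesicle traffic (at least 13.9-fold, limma adjusted p = 0.00856), RRAD, a GTPase first known from muscle (at least 13.5-fold, adjusted p = 0.042), S1PR1, the receptor by which lymphocytes leave lymph nodes (at least 5.53-fold, adjusted p = 0.00856), FCRL4, an Fc receptor-like protein of memory B cells (at least 4.30-fold, adjusted p = 0.0341), and NR2F1, an orphan nuclear receptor (at least 2.66-fold, adjusted p = 0.0128). SGK1, a kinase induced by glucocorticoids, had levels of 3.45 and 3.98 with GSK126 against 1.52 and 0.70 (2.61, adjusted p = 0.0353). JAK3, which signals from the common gamma chain, stood at 2.19 and 2.50 against 0.58 and 0.36 (1.88, adjusted p = 0.00856), in the opposite direction to IL2RG, the gene of that chain. The agents did not overlap for either kinase.

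On the UNC0638 side SVOP, a transporter-like protein of synaptic vesicles, was higher by both of its probes (-2.25 and -2.05, adjusted p = 0.00732 and 0.00829), and in MM.1S they differed by -2.10 and -1.61 and did not pass. MAT1A, the liver enzyme that makes S-adenosylmethionine, stood at 0.26 and -0.01 with UNC0638 against -2.34 and -1.84 with GSK126 (-2.21, adjusted p = 0.0139). FABP1, a fatty acid carrier of liver, was at least 4.19-fold higher (adjusted p = 0.0315) and IL19, a cytokine of the IL-10 family, differed by -2.53 (adjusted p = 0.0107). Each of the genes of both paragraphs lost its call with at least 1 array left out (adjusted p of at most 0.252).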
